A study of Mus musculus with 8 samples.

Results

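The comparison described here is between splenic T cells of mice lacking Lsp1 and of wild-type mice, both kept in medium without stimulation. It rests on 4 of the 8 arrays of the series: the 2 titled as wild-type T cells in media (WT medium) and the 2 titled as KO T cells in media (KO medium). The KO mice were Lsp1 -/- and had been backcrossed onto C57BL/6 to generation N10. The controls were C57BL/6 mice (Lsp1+/+) matched for age and sex, and all mice were 8 to 12 weeks old unless stated otherwise. The other 4 arrays hold cells of both genotypes after 6 h of stimulation through CD3 and CD28 with antibodies. The sources used here give neither the time in culture of the medium cells, nor the way T cells were isolated, nor the part of Lsp1 that was deleted. Whether replicate arrays represent different mice is likewise not given, so the spread between them may be technical.

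The product of Lsp1, leukocyte-specific protein 1, is a phosphoprotein of most white blood cells that binds filamentous actin. It is known as a substrate of the p38-activated kinase MK2 and of protein kinase C, as a partner of myosin 1e, and as a scaffold for kinases of the ERK pathway. In neutrophils and endothelium it takes part in adhesion and migration, and the title of the series names T cell migration in rheumatoid arthritis. Stimulation is the setting in which T cells make most of their cytokines, and the medium arrays show cells kept without it.

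Values are log2 of the processed spot signal minus the log2 75th percentile of that array, so 0 is the 75th percentile and 1 unit is a doubling. A gene lay above WT when the lower KO array exceeded the higher WT array, and below WT when the higher KO array was under the lower WT array. The distance between those arrays is called the gap. A gene was called when its adjusted p in limma, a linear model that shares the spread over genes, was below 0.05. The ± values are the standard errors that limma gave, with n = 2 arrays per group. An exact permutation test of 2 arrays against 2 cannot go below p = 0.333, so none was used for single genes.

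The KO medium replicate 2 array stood apart, which bears on most counts. Markers of neutrophils and their precursors had a median of 3.34 above the WT mean on it and of -0.08 on KO medium replicate 1. The root mean square SD between both arrays of a group was 0.252 in WT medium and 0.431 in KO medium. Between 69.2% and 69.7% of spots were well above background on the WT medium arrays, 66.0% on KO replicate 1 and 61.0% on KO replicate 2. The median of all genes against the WT mean was -0.01 on KO replicate 1 and -0.12 on KO replicate 2. All 48 listed genes of the T cell receptor and its nearest signalling proteins were well above background on all 4 medium arrays. Counts are therefore given with KO replicate 1 alone where the KO replicate 2 array bears on them.

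Lsp1 was the 1 gene called among 15139, which is 0.00661%. Its probe measured 7.47 and 7.23 on the WT medium arrays and 3.64 and 3.48 on the KO medium arrays. The genotypes were 3.59 apart at their nearest, and the probe was still well above background on both KO arrays. The difference was -3.79 ± 0.13, or 13.9-fold lower (limma, adjusted p = 0.00117). Since the deleted part of the gene is not given, the probe's place relative to it is not known, and the remaining signal has no further reading here. After stimulation, the WT arrays measured 7.05 and 6.98 and the KO arrays 3.68 and 3.65, a difference of -3.35.

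In all, 865 of 15139 genes had an unadjusted p below 0.05, where a share near 0.05 would have it with no difference. Of these, 394 were higher and 471 lower in KO cells, and Lsp1 was the 1 among them that passed the adjustment. Of 15119 genes measured on all 4 medium arrays, 1950 lay above WT (12.9%) and 3203 below (21.2%). The genes above made up 37.8% of both counts. If the 4 arrays were exchangeable, a share near 0.333 of genes would lie above or below WT with no difference between genotypes. The counts by themselves therefore do not show a difference. Centring arrays on their median gave 2454 above (16.2%) and 2537 below (16.8%), an upper share of 49.2%, so the excess of lower genes was not seen with that scaling. Quantile normalization gave 2484 and 2852, an upper share of 46.6%. With no filter on dim probes 3951 lay above and 3702 below, so the excess of lower genes was not seen there either. Counts for a gene list over both KO medium arrays are to be read against 12.9% and 21.2%, and those on KO replicate 1 alone against 29.9% above and 30.4% below. Counts with median centring are to be read against 16.2% and 16.8%, and those with quantile normalization against 16.4% and 18.9%.

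Among the 14131 genes well above background on all 4 medium arrays, 1860 lay above WT (13.2%) and 2831 below (20%). By itself, KO replicate 1 exceeded both WT arrays for 29.9% of genes and was under both for 30.4%. For KO replicate 2 these shares were 27.3% and 54.4%. A difference of at least 2-fold without overlap was measured for 121 of the well-detected genes above WT and 50 below. Over all genes the counts were 159 and 167. These include genes not well above background on some medium array, whose folds are not measured sizes. Among the well-detected genes a gap of at least 1 was rarer, with 11 above and 5 below.

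The widest gap below WT after Lsp1 was that of Aif1l, which encodes an actin-binding protein related to allograft inflammatory factor 1. It measured -1.74 and -0.95 on the WT arrays and -4.61 on both KO arrays. The KO arrays were thus closely spaced while the WT arrays differed, and the gap was 2.86. The difference was -3.26 ± 0.35 or 9.6-fold lower (limma, adjusted p = 0.308), and after stimulation it was -2.62.

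Ccnd1, which encodes the G1 cyclin D1, measured -1.62 and -1.74 in WT and -3.13 and -2.76 in KO cells. Its difference was -1.26 ± 0.19 (limma, adjusted p = 0.331). Dnm1, the gene of the membrane-pinching GTPase dynamin 1, measured 2.85 and 2.83 in WT and 1.78 and 1.88 in KO cells, a difference of -1.01 ± 0.26. A second Dnm1 probe differed by -0.25.

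The basement membrane gene Nid1 (nidogen 1) measured -0.59 and -1.09 in WT and -2.12 and -2.05 in KO cells. Tatdn2, a putative deoxyribonuclease gene, measured 0.67 and 0.36 in WT and -0.61 and -0.85 in KO cells. Both pairs of KO arrays lay below both WT arrays by nearly 1 unit. Slc27a6, a fatty acid transporter gene, measured -1.10 and -1.54 against -2.83 and -2.85. Sema3b, a secreted semaphorin gene, measured -3.0 and -3.45 against -4.67 and -5.03.

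Ssc5d, Slc12a5, Cyb5r2 and Gp2 were also ranked below WT. Their differences were -1.25 for Ssc5d, -1.16 for Slc12a5, -1.40 for Cyb5r2 and -1.34 for Gp2. A second Slc12a5 probe differed by -0.31. The adjusted p of the 12 ranked genes below WT ranged from 0.308 to 0.738 (limma), so none was called. Tnnt3, Wfdc2 and Prr7 came next, with gaps of 0.860, 0.858 and 0.857 against 0.880 for Gp2.

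**Figure D1:**
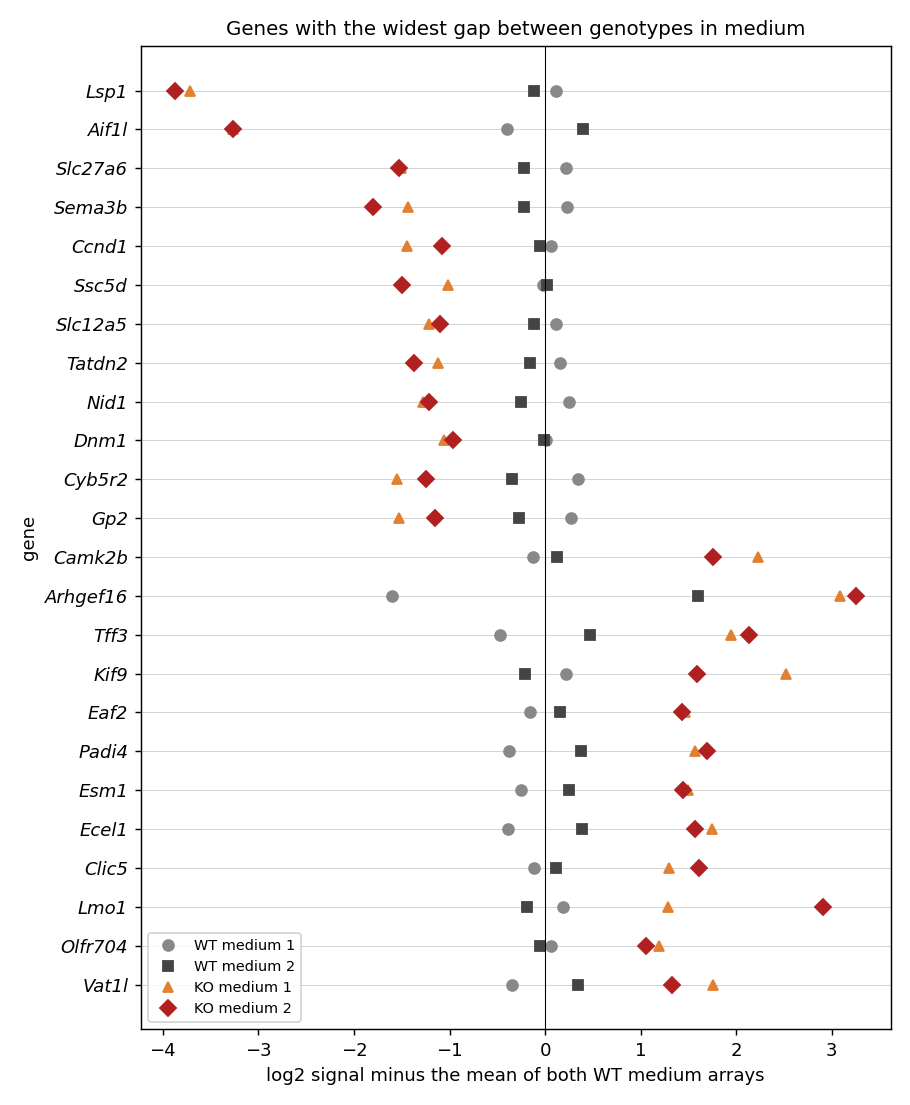
Log2 signal minus the mean of both WT medium arrays (x axis) for Lsp1 and 23 of the 24 ranked genes, 1 row a gene and 1 symbol an array. Lsp1 and Aif1l lie farthest to the left on both KO arrays, and the WT arrays of Arhgef16 are far apart.

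Above WT, the widest gap was that of Camk2b, which encodes the beta subunit of calcium/calmodulin-dependent kinase II. It measured -0.01 and 0.23 on the WT arrays and 2.33 and 1.87 on the KO arrays. Both KO arrays thus exceeded both WT arrays by at least 1.64. The difference was 1.99 ± 0.25 or 3.97-fold higher (limma, adjusted p = 0.308), and a second Camk2b probe differed by 1.01.

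Eaf2, an ELL-associated elongation factor gene, measured 3.74 and 4.06 in WT and 5.37 and 5.33 in KO cells, a difference of 1.45 ± 0.17 (limma, adjusted p = 0.308). A second Eaf2 probe differed by -0.03, so the probes of this gene disagree. Padi4 encodes a peptidylarginine deiminase that citrullinates histones in neutrophils. It measured -1.39 and -0.64 in WT and 0.56 and 0.68 in KO cells, and its second probe differed by 1.57.

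Esm1, an endothelial proteoglycan gene, measured -0.19 and 0.31 against 1.56 and 1.5. Kif9, a kinesin gene, measured -3.97 and -4.40 against -1.67 and -2.59, and its 3 other probes differed by 0.07 to 2.18. Ecel1, a neutral endopeptidase-like gene, measured -2.73 and -1.96 against -0.60 and -0.77. In each of these genes both KO arrays lay over 1 unit above the higher WT array.

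For the trefoil peptide gene Tff3 the difference was 2.04 ± 0.41, for the chloride channel gene Clic5 1.45 ± 0.29, and for Vat1l 1.54 ± 0.39. Lmo1, a LIM-only transcription regulator gene, measured -3.83 and -4.22 in WT and -2.74 and -1.11 in KO cells, so its KO arrays differed more than its WT arrays. Arhgef16, a guanine nucleotide exchange factor gene, had the largest mean difference and the least agreement between WT arrays, at -5.81 and -2.61 against -1.12 and -0.95. Its difference was 3.17 ± 1.38 (limma, adjusted p = 0.738). The olfactory receptor gene Olfr704 differed by 1.12 ± 0.42. Olfr1221, Ifit3b and Ifit1 came next, with gaps of 0.968, 0.951 and 0.916 against 0.981 for Vat1l. The adjusted p of the 12 ranked genes above WT also ranged from 0.308 to 0.738.

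Lsp1 lies on chromosome 7, and so did 7 of the 24 ranked genes, among them Lmo1 and Olfr704 above WT and Ccnd1, Ssc5d, Cyb5r2 and Gp2 below. Chromosome 7 holds 8.5% of the tested genes. Over all of them its shares were close to the rest, with 11.7% of its 1279 genes above WT and 19.2% below, against 13.0% and 21.4% of 13840 other genes.

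Of the 20 nearest measured neighbours of Lsp1 by gene order, 7 lay above WT and 2 below, where 12.9% and 21.2% of all genes did. Their median difference was -0.01. Tnnt3, the fast skeletal troponin T gene, measured -1.61 and -2.09 in WT and -2.95 and -3.08 in KO cells, a difference of -1.16 ± 0.18 (limma, adjusted p = 0.355). After stimulation Tnnt3 differed by -0.33. Dusp8, a phosphatase gene of the stress kinases, measured -3.37 and -2.80 against -2.27 and -2.19. Ascl2, a basic helix-loop-helix factor gene, measured -1.73 and -0.77 against 0.09 and -0.34.

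A gene well above background on both arrays of only 1 genotype, and on neither array of the other, has a bound in place of a fold. There were 19 such genes in KO cells and 282 in WT cells, beside the lower share of spots detected on the KO arrays. The bound sets the mean of the brighter group against the lowest signal well above background on each array of the dimmer group. Rcan2, a calcineurin regulator gene, was at least 2.29-fold higher in KO cells. Aoc1, the diamine oxidase gene, was at least 2.91-fold higher, the adaptor gene Dab2 at least 2.6-fold and Cd109 at least 1.9-fold. In the other direction, Ssx9 was at least 1.99-fold lower, Angptl7 at least 2.01-fold and Sbspon at least 1.11-fold, and Myh8 had no bound above 1. Their adjusted p ranged from 0.308 to 0.738 (limma), but these tests rest on values not well above background in the dimmer genotype. These genes were picked for detection in 1 genotype, and none was called. After stimulation Ssx9 differed by 0.15.

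H2-T3, a nonclassical class I gene found mainly in thymus and intestine, was chosen after its values were seen, since it was well above background on 3 of the 4 medium arrays and so entered neither ranking. It measured -6.43 and -5.65 in WT and -3.29 and -3.74 in KO cells, a difference of 2.52 ± 0.34 (limma, adjusted p = 0.308). After stimulation H2-T3 differed by 2.17.

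Type I interferon-stimulated genes held the largest share of members above WT of the 33 lists with at least 5 measured members. These genes are switched on when interferon alpha or beta binds its receptor and the transcription factor complex ISGF3 binds their promoters. Of 59 measured members, 34 lay above WT and 0 below. Of the 59, 13 were higher with an unadjusted p below 0.05, as were 394 of all 15139 genes. Their median difference was 0.31, against -0.06 over all genes. Median centring gave 41 above and 0 below, and quantile normalization 37 and 0.

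The medians of this list were 0.23 on KO replicate 1 and 0.27 on KO replicate 2. KO replicate 1 alone exceeded both WT arrays for 49 of the 59 and was under both for 3. For KO replicate 2 alone these counts were 38 and 11, where the shares of all genes were 27.3% and 54.4%. None of the members passed the adjustment over all genes, so none is called changed.

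Ifit1, an antiviral RNA-binding protein gene, measured -0.30 and -0.47 in WT and 0.74 and 0.61 in KO cells. Both KO arrays lay 0.916 or more above WT, and the difference was 1.06 ± 0.24 or 2.09-fold (limma, adjusted p = 0.691). Its relative Ifit3 measured 0.65 and 0.79 against 1.81 and 1.60, a difference of 0.98 ± 0.17 (limma, adjusted p = 0.528). Ifit3b is a near copy of Ifit3, so the probes of both may read the same transcripts.

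Cmpk2, a mitochondrial nucleotide kinase gene, measured -1.74 and -1.79 in WT and -0.94 and 0.27 in KO cells. Ifi44 measured -2.63 and -3.43 against -1.96 and -1.61. In both genes KO replicate 2 was the higher KO array. Isg15, a ubiquitin-like modifier gene, measured 2.72 and 2.52 against 3.20 and 3.51. The 2-5A synthetase gene Oas3 measured -1.75 and -1.77 against -1.21 and -1.15.

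The promoters of 4 of these genes are shown because the interferon-stimulated response element is the feature the list is known for. All 4 genes hold the motif and lie above WT, so they do not stand for the list as a whole. The motif searched was GAAA-NN-GAAA, the core of that element, where N is any base, on both strands (TTTC-NN-TTTC on the other), with overlapping matches kept. The sequences are RefSeq's of the build GRCm38.p6, read 5′ to 3′ along the gene's strand, with matches in capitals.
Ifit1, chr19:34640765-34640833, plus strand: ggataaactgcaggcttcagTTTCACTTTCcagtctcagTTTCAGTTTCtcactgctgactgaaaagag
Ifit3, chr19:34583353-34583436, plus strand: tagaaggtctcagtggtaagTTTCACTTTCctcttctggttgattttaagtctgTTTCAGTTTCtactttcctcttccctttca
Isg15, chr4:156200855-156200916, minus strand: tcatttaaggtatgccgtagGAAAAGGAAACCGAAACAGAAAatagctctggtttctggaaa
Oas3, chr5:120777705-120777754, minus strand: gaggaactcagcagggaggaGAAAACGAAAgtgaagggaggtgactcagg
Ifit1 and Ifit3 each hold 2 matches on the other strand, Isg15 holds 3 that overlap, and Oas3 holds 1. The printed Ifit1 stretch runs from 124 to 56 bases before the start of the gene, and that of Isg15 from 98 to 37.

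The motif was in 1131 of 32851 promoters of 300 bases (250 before to 50 after the start), or 3.44%, and in 3.81% of 12094 tested genes with a promoter. Of 47 measured interferon-stimulated genes with a promoter, 20 held it (42.6%). Of these 20, 12 lay above WT with a list median of 0.32, and of the 27 without it 13 did with a median of 0.24. Of all tested genes above WT with a promoter, 4.14% held the motif. A match describes the letters of this window and does not show that a factor binds there.

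Genes of interferon reception and signalling were split, with 2 of 27 above WT, 2 below and a median of 0.00. Median centring gave 8 above and 2 below. Irf7, the factor that amplifies interferon production, measured -0.64 and -0.45 in WT and 0.07 and -0.27 in KO cells. Tlr7, an endosomal sensor of single-stranded RNA, measured 0.49 and 0.69 against 0.94 and 1.07. Both lay above WT without passing the adjustment.

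The guanylate-binding and immunity-related GTPases, targets of interferon gamma more than of type I interferon, had 7 of 16 above WT and 0 below, with a median of 0.10. KO replicate 1 alone was above both WT arrays for 11 and under both for 0, and KO replicate 2 alone for 9 and 5. Gbp10 measured -1.79 and -1.26 in WT and -1.02 and -0.82 in KO cells, and its close relative Gbp6 measured 0.34 and 0.94 against 1.09 and 1.43. After stimulation 1 of the 16 lay above WT and 10 below, where 13.4% and 24.3% of all genes did. In the class I antigen presentation list 5 of 23 lay above WT and 1 below, with a median of 0.06. H2-T24, a nonclassical class I gene, measured -1.06 and -1.16 against -0.50 and -0.45, a difference of 0.64 ± 0.12 (limma, adjusted p = 0.546). Pdia3, a chaperone of the peptide-loading complex, differed by 0.29 ± 0.13.

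**Figure D2:**
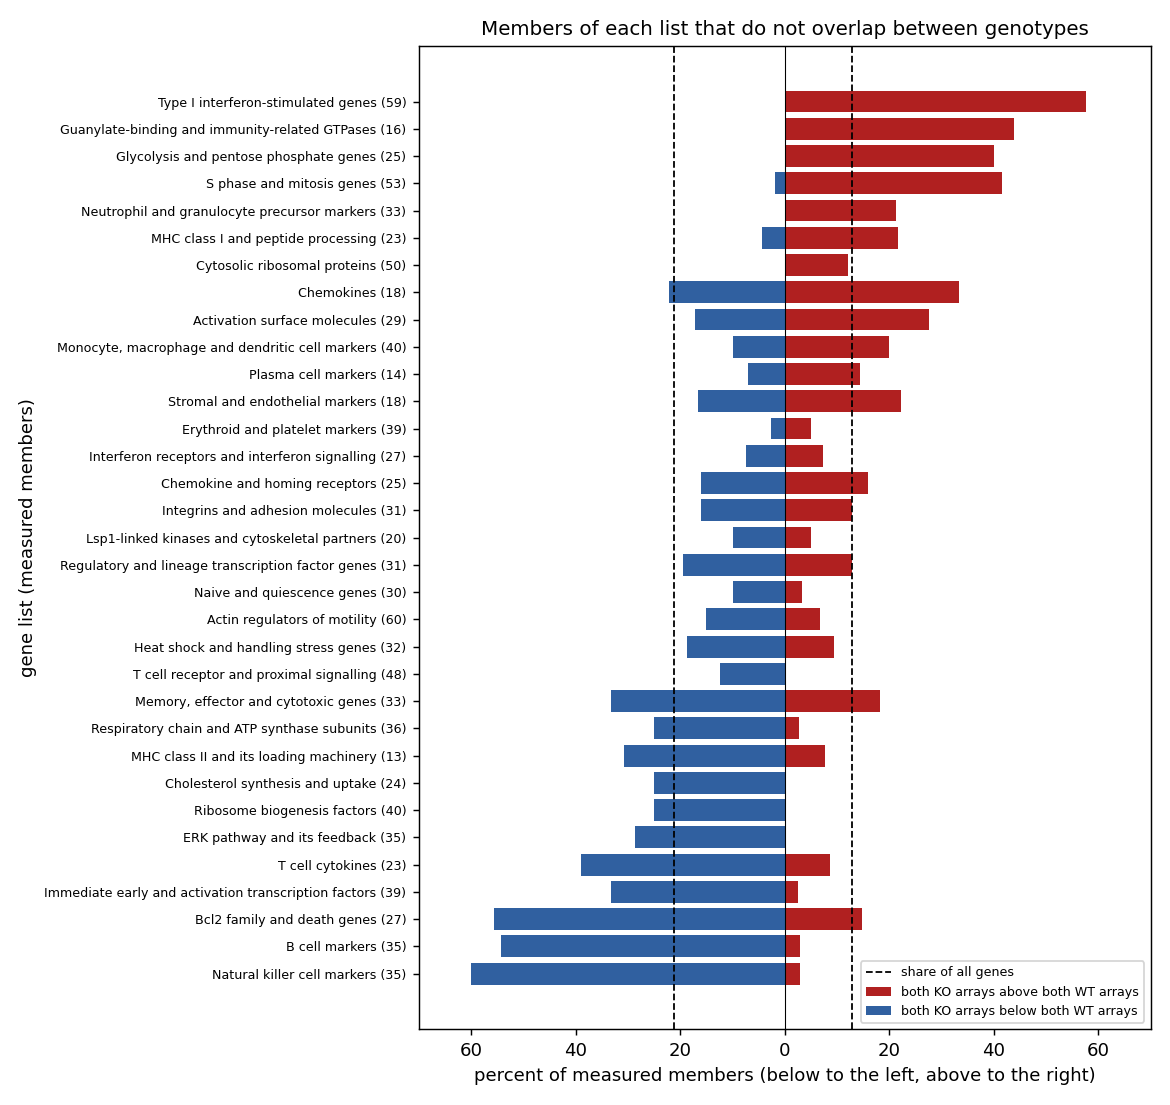
Percent of the measured members of 33 gene lists that lay above WT (right, red) or below WT (left, blue) on both KO medium arrays, with the number of measured members in parentheses and dashed lines at the shares of all genes, 12.9% and 21.2%. The interferon-stimulated genes reach farthest to the right, and the natural killer and B cell markers farthest to the left with the Bcl2 family and death genes.

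Most measured markers of B cells and of natural killer cells lay below WT, where 21.2% of all genes did. In bulk samples, fewer cells of a type and less RNA per cell cannot be told apart. Of 35 measured B cell markers, 19 lay below WT and 1 above, with a median of -0.27, and of 35 natural killer markers 21 lay below and 1 above, with a median of -0.39. Median centring gave 12 below and 1 above for B cells, and 20 and 3 for natural killer cells. KO replicate 1 alone was under both WT arrays for 27 of the B cell markers and 24 of the natural killer markers.

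Ms4a1, which encodes CD20, measured 2.19 and 1.60 in WT and 0.76 and 0.75 in KO cells (limma, adjusted p = 0.61). The IgM Fc receptor gene Fcmr measured 3.06 and 3.14 against 2.40 and 2.08. Ebf1, the B lineage transcription factor gene, measured -1.75 and -2.47 against -3.12 and -3.32. These 3 genes did not overlap between genotypes, and their differences were -1.14 for Ms4a1, -0.86 for Fcmr and -1.11 for Ebf1. On KO replicate 2 alone 8 of the 35 markers exceeded both WT arrays, and 22 were under both. The farthest from WT was Cd24a, also made by erythroid and myeloid precursors, at 1.90 and 1.57 in WT and 1.15 and 3.44 in KO cells.

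Among natural killer genes, Klrb1a measured 0.00 and -0.20 in WT and -0.77 and -1.14 in KO cells, a difference of -0.86 ± 0.19 (limma, adjusted p = 0.633). Klrb1c, which encodes NK1.1, measured 0.50 and 0.58 against -0.02 and -0.30. The receptor gene Klri2 measured 0.36 and 0.18 against -0.29 and -0.43. Klrb1a and Klrb1c are paralogs, so their probes may share signal. Khdc1a differed by -0.72 ± 0.24. Car2, which red cells also make in quantity, measured 2.68 and 2.49 in WT and 2.36 and 4.25 in KO cells.

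The summed level of the B cell list was 7.63 and 7.42 on the WT arrays and 7.22 and 7.70 on the KO arrays, where it is the log2 of the members' summed signal relative to the 75th percentile. For the natural killer list it was 7.45 and 7.21 against 7.20 and 7.40, so the sums overlapped between genotypes in both lists. Class II genes, made by B cells and other antigen-presenting cells, had 4 of 13 below WT and 1 above, with a median of -0.18. H2-DMb2 differed by -0.49 ± 0.18, the class II transactivator gene Ciita by -0.60 ± 0.31 and H2-Eb2 by -0.69 ± 0.20. Plasma cell markers were split, with 2 of 14 above and 1 below.

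Myeloid and erythroid markers were high on KO replicate 2 and not on KO replicate 1. In the neutrophil list 7 of 33 measured members lay above WT and 0 below, and the list median was 1.76 for the mean of both KO arrays, -0.08 on KO replicate 1 and 3.34 on KO replicate 2. The lactoferrin gene Ltf measured -3.67 and -5.43 in WT and -6.12 and 0.57 in KO cells. Ngp, a secondary granule gene, measured -3.82 and -4.91 against -5.31 and 0.97. For both genes KO replicate 1 was the lowest array and KO replicate 2 the highest. After stimulation Ngp measured -4.08 and -5.21 on the WT arrays and -7.12 and 0.53 on the KO arrays, so replicate 2 was again the high one.

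Elane, the neutrophil elastase gene, measured 2.46 and 2.59 in WT and 2.92 and 6.36 in KO cells. Mcpt8, a basophil protease gene, measured -0.68 and -0.80 against 0.11 and 2.73. Both exceeded WT on KO replicate 1 as well, by 0.329 for Elane and 0.798 for Mcpt8. The summed level of the list was 8.12 and 7.61 on the WT arrays, 7.74 on KO replicate 1 and 9.81 on KO replicate 2.

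Erythroid and platelet markers showed the same split, with list medians of -0.46 on KO replicate 1 and 1.56 on KO replicate 2. Of 39 measured members, 2 lay above WT and 1 below. Rhag, a red cell membrane gene, measured -3.91 and -4.91 in WT and -5.05 and -1.30 in KO cells, and Add2, an erythrocyte adducin gene, measured -3.15 and -4.75 against -5.11 and -1.25. Of the 40 monocyte, macrophage and dendritic cell markers 8 lay above WT and 4 below, with a median of -0.08 on KO replicate 1 and 0.61 on KO replicate 2. Axl, the efferocytosis receptor gene, was above WT on both KO arrays, at -0.44 and -0.11 against 0.36 and 0.60. The Fc receptor gene Fcgr4 measured -4.43 and -4.38 against -4.03 and -2.14.

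Of the 18 stromal and endothelial markers 4 lay above WT and 3 below. Pdgfrb, a pericyte receptor gene, measured -3.92 and -4.26 in WT and -3.77 and -1.91 in KO cells, while the matrix gene Sparc measured -1.75 and -1.64 against -2.70 and -2.40. Genes of S phase and mitosis had 22 of 53 members above WT and 1 below, and their medians were 0.03 on KO replicate 1 and 0.98 on KO replicate 2. KO replicate 1 alone exceeded both WT arrays for 23 of the 53, against 29.9% of all genes. Aurkb, a mitotic kinase gene, measured -4.55 and -5.21 in WT and -4.26 and -3.49 in KO cells. Tyms, the thymidylate synthase gene, measured -2.25 and -2.15 against -1.90 on both KO arrays. Kif11 measured -1.97 and -1.92 against -1.76 and -0.61. The part of the myeloid and erythroid signal in the gene lists that differ between the KO arrays was not tested.

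**Figure D3:**
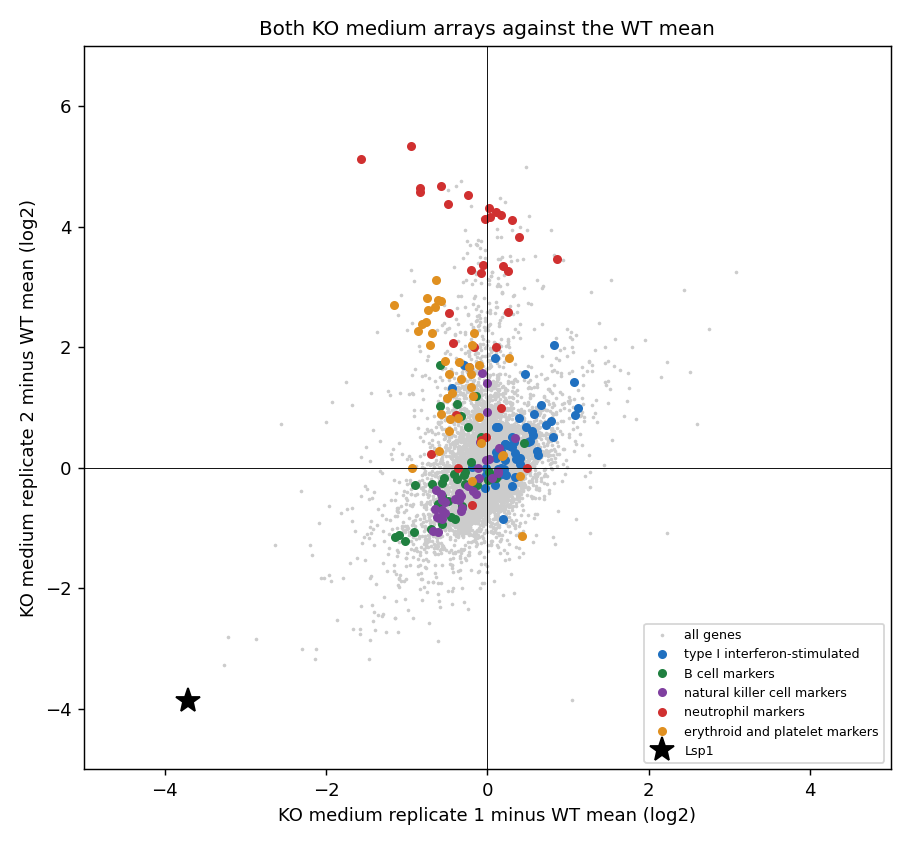
Difference from the WT medium mean on KO medium replicate 1 (x axis, log2) against that on KO medium replicate 2 (y axis, log2), 1 point a gene, with 5 lists in colour and Lsp1 as a star. Neutrophil and erythroid markers lie high on replicate 2 near or left of 0 on replicate 1, while most interferon-stimulated genes lie right of 0 and most B cell and natural killer markers in the lower left.

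Few genes of T cell identity lay outside the WT range on both KO arrays. For the T cell receptor and its nearest signalling proteins 6 of 48 lay below WT and 0 above, with a median of 0.05 on KO replicate 1 and -0.33 on KO replicate 2. Trat1, a receptor-associated adaptor gene, measured 1.85 and 1.82 in WT and 1.64 and 1.01 in KO cells. Ubash3b, a phosphatase gene that restrains receptor signalling, differed by -0.37 ± 0.18. Naive and quiescence genes had 3 of 30 below and 1 above, and their medians were 0.05 and -0.33. Cd55, the complement decay-accelerating factor gene, measured 3.49 and 3.24 against 3.0 and 2.55, and the antiproliferative gene Tob1 differed by -0.40 ± 0.29.

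Memory, effector and cytotoxic genes had 11 of 33 below WT and 6 above, with a median of 0.04. By mean difference 19 members were higher in KO cells and 14 lower, from -0.65 to 0.96. The genes named next were picked from those below WT and do not stand for the list. Cxcr6, a chemokine receptor gene of tissue-resident cells, measured 5.80 and 5.48 in WT and 5.32 and 4.66 in KO cells. Klrg1, an inhibitory receptor gene, measured 0.99 and 0.64 against 0.18 and 0.46. The interleukin 18 receptor gene Il18r1 differed by -0.56 ± 0.23 and the cathepsin gene Ctsw by -0.43 ± 0.20. Several of these genes are made by natural killer cells as well as T cells.

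Regulatory and lineage genes had 6 of 31 below and 4 above, with a median of -0.04. Il2ra, the alpha chain of the interleukin 2 receptor, measured 2.15 and 1.59 in WT and 1.28 and 0.87 in KO cells, a difference of -0.80 ± 0.24 (limma, adjusted p = 0.738). After stimulation Il2ra measured 5.19 and 5.27 in WT and 4.93 and 5.29 in KO cells, so the genotypes overlapped. Ahr, the aryl hydrocarbon receptor gene, differed by -0.29 ± 0.22. In the list of activation surface molecules 8 of 29 lay above WT and 5 below, with a median of 0.01. By mean difference 16 members were higher in KO cells and 13 lower, from -0.80 to 0.54. The genes named next were picked from those above WT and do not stand for the list. The inhibitory receptor gene Lag3 differed by 0.46 ± 0.18, Ctla4 by 0.26 ± 0.12 and Ly6a, which encodes Sca-1, by 0.33 ± 0.16.

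Genes of the motility machinery, the setting in which Lsp1 is best known, gave shares near or under those of all genes in both directions, with the exception of the homing receptors above WT (16.0%). Among 60 actin regulators 4 lay above WT and 9 below, and their median of -0.08 became 0.02 with median centring. Limk1, the kinase that inactivates cofilin, measured 2.87 and 2.60 in WT and 2.23 and 2.01 in KO cells, a difference of -0.62 ± 0.14 (limma, adjusted p = 0.691). After stimulation Limk1 differed by -0.02. The formin gene Diaph1 measured 1.13 and 1.01 against 0.84 and 0.02, the radixin gene Rdx differed by -0.26 ± 0.11 and the Rac activator gene Dock2 by -0.31 ± 0.19.

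Among 20 kinases and cytoskeletal partners linked to Lsp1, with Lsp1 itself in the list, 2 lay below WT and 1 above. Besides Lsp1, the member below was Myo1e, at -0.62 and -0.49 in WT and -0.75 and -0.89 in KO cells. Chemokine and homing receptors had 4 of 25 above and 4 below, with a median of -0.12. Their medians were 0.01 on KO replicate 1 and -0.30 on KO replicate 2. By mean difference 7 members were higher in KO cells and 18 lower. Ccr3, among those above WT, differed by 0.24 ± 0.13. Integrins and adhesion molecules had 4 of 31 above and 5 below. Itga2 differed by -0.69 ± 0.54 and Itgb3 by -0.20 ± 0.16.

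Chemokine genes had 6 of 18 above WT and 4 below, with medians of -0.09 on KO replicate 1 and 0.55 on KO replicate 2. Cxcl10, the interferon-induced ligand of Cxcr3, measured 0.91 and 0.96 in WT and 1.38 and 1.62 in KO cells. Ccl9, a myeloid chemokine gene, measured 0.03 and 0.13 against 0.37 and 3.51. For Ccl9 most of the difference thus lay in KO replicate 2.

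The ERK pathway and its feedback genes had 10 of 35 below and 0 above, with a median of -0.11, and median centring gave 7 and 4. KO replicate 1 alone was under both WT arrays for 11 of them and above both for 10. Spry2, a feedback inhibitor gene of the pathway, measured -4.17 and -4.59 in WT and -4.92 and -5.21 in KO cells. The ternary complex factor gene Elk4 differed by -0.49 ± 0.20. Bcl2 family and death genes had 15 of 27 below and 4 above, with a median of -0.21, and median centring gave 12 and 1. By itself, KO replicate 1 was under both WT arrays for 16 of the 27 and above both for 5.

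Bcl2l11, which encodes the death inducer Bim, measured -1.03 and -1.12 in WT and -1.42 and -1.47 in KO cells. Fasl, the Fas ligand gene, measured 2.85 and 2.51 against 2.38 and 1.95. The caspase 8 inhibitor gene Cflar differed by -0.32 ± 0.17 and Bmf by -0.29 ± 0.17. Both inducers and inhibitors of death were among the members below WT, and the adjusted p of each of these 4 was 0.738 (limma).

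Immediate early and activation transcription factor genes had 13 of 39 below WT and 1 above, with a median of -0.16, and median centring gave 9 and 1. For KO replicate 1 alone the counts were 20 under and 8 above. Egr2 measured 0.88 and 0.65 in WT and 0.24 and 0.18 in KO cells, and Nr4a1 measured 4.14 and 4.09 against 3.80 and 3.38. Both are induced within an hour of receptor triggering, and after stimulation they differed by 0.17 and 0.21. Egr3 differed by -0.95 ± 0.20 but was well above background on only 1 of the 4 medium arrays. Nfkbiz differed by -0.28 ± 0.12. T cell cytokine genes had 9 of 23 below and 2 above, with a median of -0.19. Il4 differed by -0.55 ± 0.23, Csf2 by -0.52 ± 0.24 and Il24 by -0.45 ± 0.19.

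Among housekeeping lists, glycolysis and pentose phosphate genes lay above WT in 10 of 25 and below in 0, with a median of 0.13. On KO replicate 1 alone, 14 were above both WT arrays and 3 under both. Slc16a3, the lactate exporter gene, measured 2.12 and 2.60 in WT and 3.16 and 2.99 in KO cells, a difference of 0.72 ± 0.23 (limma, adjusted p = 0.738). Gapdh measured 7.48 and 7.63 against 7.75 and 7.86. Respiratory chain genes had 9 of 36 below and 1 above, and ribosome biogenesis factors 10 of 40 below and 0 above. Median centring gave 6 below and 4 above for the respiratory chain, and 5 and 1 for ribosome biogenesis. Npm3, a nucleolar chaperone gene, measured 0.70 and 0.58 in WT and 0.29 and 0.15 in KO cells, and the complex I gene Ndufc1 differed by -0.27 ± 0.14.

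Cytosolic ribosomal protein genes had 6 of 50 above and 0 below, and this count moved with the scaling, to 18 and 1 with median centring and to 3 and 8 with quantile normalization. Cholesterol genes had 6 of 24 below and 0 above, with a median of 0.07. That count moved with the scaling too, to 0 below and 1 above with median centring and to 1 and 0 with quantile normalization. Heat shock and handling stress genes had 6 of 32 below and 3 above, and median centring gave 4 and 5. Srebf2, the regulator of cholesterol synthesis genes, differed by -0.37 ± 0.12 and the hypoxia-linked gene Bnip3 by -0.38 ± 0.13. Of the sex-linked genes only Xist was measured, at -0.04 and -0.22 in WT and -0.33 and -0.26 in KO cells.

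**Figure D4:**
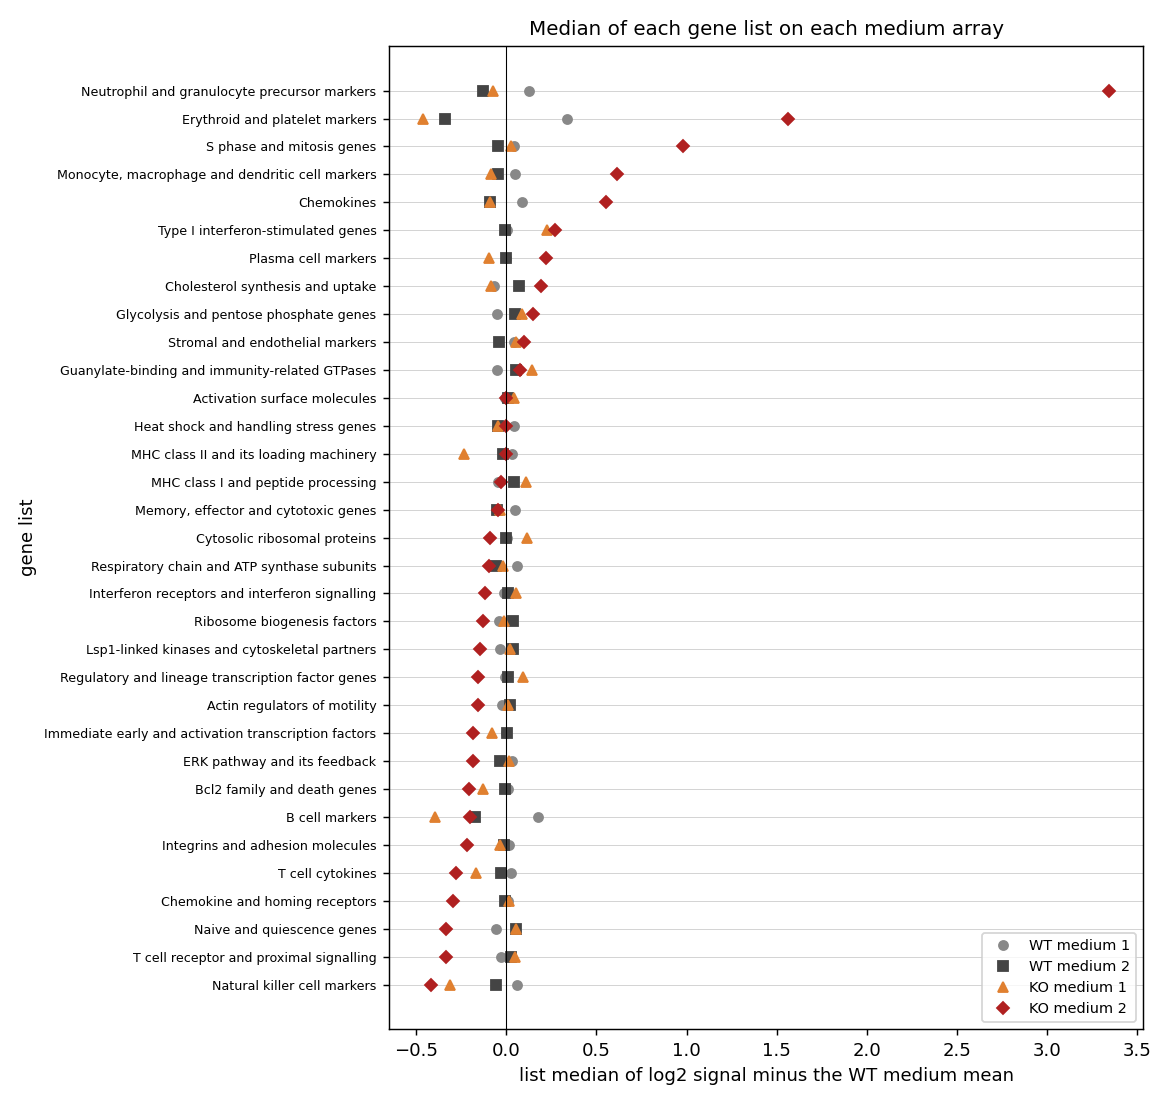
Median of each of 33 gene lists on each medium array, as log2 signal minus the WT medium mean. KO replicate 2 (diamonds) lies far to the right for neutrophil and erythroid markers and S phase genes while KO replicate 1 (triangles) does not, and both lie right of the WT arrays for the interferon-stimulated genes and left of them for natural killer markers.

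The stimulated arrays give each difference a second time in other RNA samples. The replicates are not independent between conditions, since deviations of KO replicate 1 from its group mean correlated at 0.742 over genes between medium and stimulation. After stimulation 13.4% of 15135 genes lay above WT and 24.3% below. Of the genes above WT in medium, 665 (34.1%) were above after stimulation too, which is 32.8% of the genes above WT there. Of those below, 1266 (39.5%) were below in both, which is 34.5% of the genes below WT after stimulation.

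All 12 ranked genes above WT in medium lay above it after stimulation, with differences of 1.45 to 3.51. Arhgef16, Tff3 and Olfr704 among them, and Cyb5r2 among those below, were not well above background on every stimulated array. Their differences after stimulation are therefore not measured sizes. Of the 12 below, 9 lay below WT again. The other 3 were Gp2, at -0.79, Ssc5d, at 0.14, and Tatdn2, at -0.02. Tatdn2 measured -0.68 and -0.61 in WT and -0.60 and -0.73 in KO cells after stimulation, so both genotypes were near the level of the medium KO arrays. Ssc5d likewise measured -5.14 and -4.94 against -4.98 and -4.82. The interaction of genotype and stimulation was not called for any of these 24 genes (limma, adjusted p = 1.0 for each).

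Of the interferon-stimulated genes, 21 of 59 lay above WT in both conditions and 0 below in both, where 4.39% and 8.36% of all genes did. After stimulation 27 lay above WT and 6 below, with a median of 0.19. Ifit1 measured 2.01 and 2.04 in stimulated WT cells and 2.51 and 3.26 in stimulated KO cells. B cell markers lay below WT in both conditions in 17 of 35, and natural killer markers in 17 of 35. Immediate early genes did not repeat their count, with 5 of 39 below and 8 above after stimulation. For the interaction over all genes, 1 of 15139 was called (0.00661%) and 456 had an unadjusted p below 0.05. With the replicate number as a block 0 were called, and the 1 call rested on values not well above background.

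**Figure D5:**
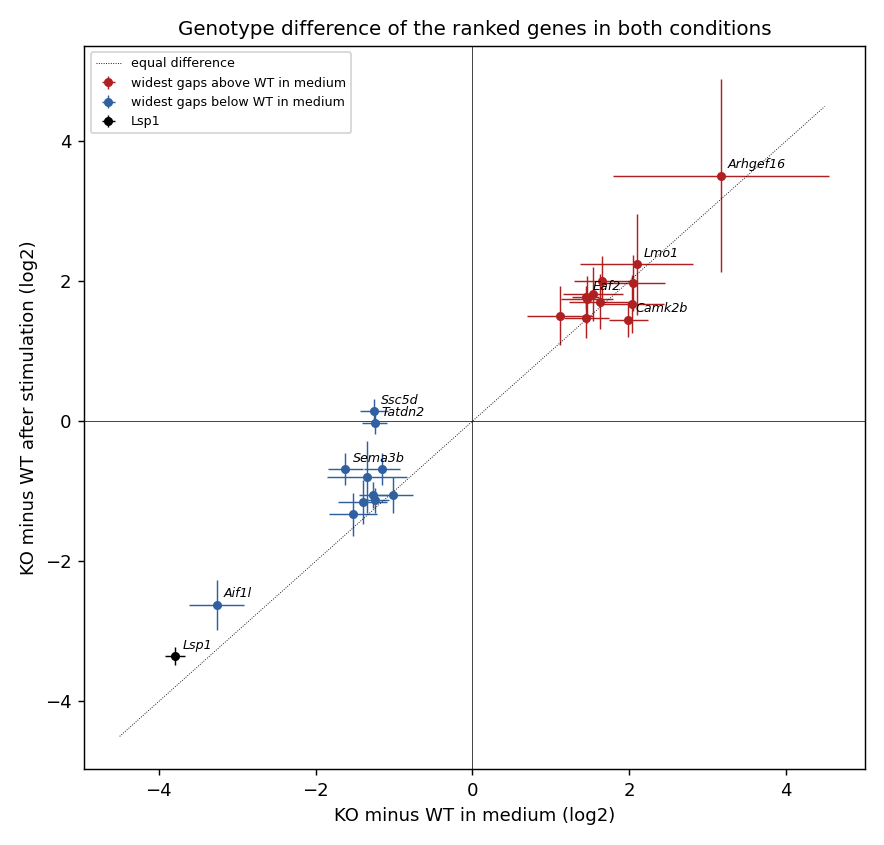
KO minus WT in medium (x axis, log2) against KO minus WT after stimulation (y axis, log2) for Lsp1 and 23 of the 24 ranked genes, with standard errors of the limma fit as bars and a dotted line of equal difference. The 12 genes above WT in medium all lie between 1.45 and 3.51 after stimulation, while Tatdn2 and Ssc5d lie near 0 on the y axis. Arhgef16, Tff3, Olfr704 and Cyb5r2 were not well above background on every stimulated array, so their y values are not measured sizes.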

How the data were processed

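Total RNA was labelled with one dye and hybridised to Agilent arrays, 1 sample per array, 8 arrays on 1 slide, where position and group cannot be told apart. Per the file headers, spots were read with Feature Extraction 10.7.1.1. The deposited intensity values are on a linear scale, and the processed signal has the background subtracted by that program. The deposited flags of other kinds (well above background, outlier, saturated) are 0 or 1 per the file headers. An array has 62976 spots including 3671 controls, and on all arrays together 1 spot was saturated. Precision is limited by the number of arrays.

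From these, log2 of the processed signal minus that of its 75th percentile was computed (percentile signals 1206.7 to 1472.9), without control and outlier spots (120 to 195), and spots of a probe were averaged. The filter kept probes that both arrays of some group measured well above background (37257 of 55681). Names came from accessions matched to RefSeq (GRCm38.p6): 26056 probes received a name and 29625 did not, of which 17528 passed the filter and enter only the test over probes. Each gene took its brightest probe, giving 15139 genes, 24 of them with a missing value. The files name the build mm9, so no coordinates were joined.

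Genes were fitted with limma 3.58.1 in R 4.3.3 over all 8 arrays with 4 group means (residual df 4, prior df 2.12) and Benjamini-Hochberg adjustment over all genes. The fit treats all arrays as independent and gives the 4 groups 1 spread per gene. Since KO replicate deviations correlated at 0.742 between conditions, these df may overstate the independent information. The SD between arrays was also larger in KO medium (0.431) than in WT medium (0.252). The fit was tested on simulated data with independent arrays and 1 SD for all genes and groups. That test cannot show how the fit behaves with the correlation and unequal SD given here. Tables and plots were made with pandas 2.3.3 and matplotlib 3.10.9. The members and the 34 gene lists were chosen with earlier results of these data known. By rule the text names Lsp1, the 12 widest gaps in each direction among genes well above background on all 4 medium arrays, 4 in each direction detected in 1 genotype, up to 4 per list by gap, the marker farthest from WT on each KO array, and neighbours of Lsp1. Some genes that the rule selects are not reported here. Alternatives were median centring, quantile normalization, the deposited value table (equal to the median signal), normexp with an offset of 50, other filters and probes, the medium arrays alone, the replicate block and leaving out arrays.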

Additional observations from a re-analysis of the deposited data

Results flagged for a closer look

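Olfr325, an olfactory receptor gene, was the 1 gene called for the interaction of genotype and stimulation, at -4.05 (limma, adjusted p = 0.0393). It measured -8.67 and -8.97 in WT and -8.60 and -8.22 in KO cells in medium, -4.40 and -4.54 in stimulated WT and -8.09 and -8.13 in stimulated KO cells. It was well above background only on the stimulated WT arrays and passed the filter on dim probes through them, so the size of the interaction is not measured and its test rests on values at background. In stimulated cells it was at least 2.47-fold lower in KO cells. No gene was called for the interaction with the replicate block, with no filter on dim probes, with the filter over all arrays, with the deposited value table or with normexp.

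In 4 genes named above both KO arrays lay on opposite sides of WT in the 2 conditions, and these differences were not called. The change in difference after stimulation was 2.35 for Myh8, 0.51 for Ubash3b, -0.82 for Gbp6 and 0.53 for Npm3. Myh8 was well above background only on the WT medium arrays, so its change is not measured.

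A second probe of Lrrc27, outside the comparison of genes, measured -5.78 and -5.61 in WT and -3.71 and -3.67 in KO cells in medium. Its difference was 2.0 ± 0.13 (limma over 37257 probes, adjusted p = 0.0322) and 0.78 after stimulation, while the brighter Lrrc27 probe differed by 0.27.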

How the results depend on the processing

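Lsp1 stayed at its sign and was called under every alternative run but 2: with the 4 medium arrays alone it was -3.79 (adjusted p = 0.0643) with 0 genes called, and without both KO replicate 2 arrays it was -3.71 (adjusted p = 0.146) with 0 called. Leaving out 1 array gave -3.91 to -3.67 and 1 to 2 genes called, the second being Adamtsl2 (3.1) without KO medium replicate 1. Testing every probe past the filter called 3. Genes above WT numbered 3951 with no filter on dim probes, where 3702 lay below, so the excess of lower genes turned. They numbered 4521 without both KO replicate 2 arrays and 1950 to 4521 with 1 array left out, and genes below 3203 to 8219. The highest of these came without KO medium replicate 2 for genes above and without KO medium replicate 1 for genes below. These ranges compare fewer arrays, which gives fewer chances of overlap. The interaction count was 2 with median centring, 3 with quantile normalization and 0 with no filter, the all-array filter, the deposited table, normexp or both KO replicate 2 arrays left out, and 0 to 1 with 1 array left out. Leaving out 1 array gave -0.58 to 1.7 for Cd24a, -0.22 to 1.67 for Car2, -1.57 to 5.12 for Ltf, -0.95 to 5.34 for Ngp, -1.16 to 2.7 for Add2 (-0.03 without WT medium replicate 2) and -0.64 to 3.11 for Rhag. Each low value came without KO medium replicate 2 and also without both KO replicate 2 arrays. Their causes were not tested. The planned normexp on mean signals was not run, since those signals were not analysed here, and median signals took their place.

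Replicate numbers did not pair the compared groups, whose replicate 1 deviations correlated at -0.061 in medium. With the replicate block Lsp1 was -3.79 (adjusted p = 0.00406), 1 gene was called and the interaction count was 0.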

Other observations

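With limma run over all 37257 probes past the filter, 3 were called in medium: that of Lsp1, the second Lrrc27 probe and the probe A_30_P01027033, which has no gene name here. The unnamed probe measured -5.55 and -5.37 in WT and -8.43 and -8.02 in KO cells in medium (limma, adjusted p = 0.0322). It was well above background only on the WT medium arrays and passed the filter through them, so its fitted difference is not a measured size, and it was at least 1.53-fold lower in KO cells. After stimulation it measured -7.77 on both WT arrays and -7.86 and -7.92 on the KO arrays, none of them well above background. Of the 17528 unnamed probes past the filter, 1979 had an unadjusted p below 0.05.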
